A study of Mus musculus with 79 samples.

Results

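In bulk RNA sequencing of the medial prefrontal cortex (mPFC) and the ventral hippocampus (vHipp), the mice of this study fell into a low and a high class by the level of 1 gene, Srp54a. A library was placed in the low class when its Srp54a level was under 0.9 CPM (the count scaled by the total count of the library) and in the high class otherwise. The low class held 21 of 79 libraries, 10 of 39 from the mPFC and 11 of 40 from the vHipp, and they came from 11 of 40 mice. The other 58 libraries, 29 from each region, came from 29 mice.

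All mice were wild-type, non-sibling males of the outbred CD-1 (ICR) stock, aged 9 to 10 weeks and housed in groups. CSDS mice went through chronic social defeat stress for 21 days in a modified form, in which they returned to their own cage mates after each defeat and did not live with the aggressor, while CTRL mice were not defeated. Mice then received 1 injection of ketamine (10 mg/kg) or saline, and tissue punches of whole mPFC or vHipp, which hold all cell types, were taken 7 days later. Each of the 4 groups (CTRL saline, CTRL ketamine, CSDS saline and CSDS ketamine) had 10 libraries per region, apart from 9 mPFC libraries of CSDS ketamine mice. Total counts lay between 11726129 and 41767119 per library, and no 2 libraries of a group were identical. The regions carried their defining markers: Prox1, a factor of dentate gyrus neurons, lay at 47.5 to 302 CPM in the vHipp and at 14.8 to 35.3 CPM in the mPFC, and Cux2, a factor of upper cortical layers, at 24.5 to 55.5 CPM in the vHipp and at a median of 186 CPM in the mPFC. In bulk tissue, fewer cells of a type and less RNA per cell cannot be told apart.

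Srp54a encodes the GTPase subunit of the signal recognition particle, a complex of proteins and a small RNA. The subunit binds the signal sequence of a nascent secretory or membrane protein as it leaves the ribosome, and, through the receptor of the particle, brings the ribosome to the translocon of the endoplasmic reticulum. The reference mouse genome carries 3 copies of the gene side by side, Srp54a, Srp54b and Srp54c.

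The copies lie on the plus strand of chromosome 12 (GRCm38): Srp54a (ENSMUSG00000073079) at chr12:55080262-55115367, Srp54b at chr12:55155104-55189573 and Srp54c at chr12:55230168-55263836. Their annotated coding sequences are each 1512 bases long. Those of Srp54a and Srp54b were identical, and Srp54c differed from both at 6 bases (99.603% identity), which bears on how reads can be given to each copy. Counted from 1 at the first base of the start codon, with the base of Srp54a first, the differences were T501C, T945C, G946A, T965G, A1197T and G1249A, and 4 of them change the residue. A pair of stretches that hold 3 of the differences are shown, 5′ to 3′, to let the copies be compared, with the bases that differ in capitals.
Srp54a, coding bases 486 to 516, chr12:55099913-55099943: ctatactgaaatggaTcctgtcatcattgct
Srp54c, coding bases 486 to 516, chr12:55250004-55250034: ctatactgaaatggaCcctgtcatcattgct
Srp54a, coding bases 1182 to 1264, chr12:55108527-55108609: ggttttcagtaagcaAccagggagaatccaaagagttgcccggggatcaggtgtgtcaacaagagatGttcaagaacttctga
Srp54c, coding bases 1182 to 1264, chr12:55257450-55257532: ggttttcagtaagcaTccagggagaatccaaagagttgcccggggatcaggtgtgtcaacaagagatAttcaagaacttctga

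The stretches of Srp54b were the same as those of Srp54a. Of all windows of 100 bases in the annotated transcripts of Srp54a, 33.4% (1810 of 5416) were found in no transcript of another gene. The corresponding shares were 12.4% for Srp54b and 10.5% for Srp54c. None of the 1512 windows that start in the coding sequence of the longest Srp54a transcript was its own. Its own windows were 371 of 507 before and 858 of 2380 after the coding sequence. In Srp54c, all 372 windows of its own in the longest transcript started in the coding sequence. A read of Srp54a can thus be told from its copies only outside the coding sequence, a read of Srp54c only within it, and the values of all 3 are uncertain to the extent that shared reads were dropped or split. How shared reads were counted is not given in the sources used here.

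In the mPFC, Srp54a lay between 0.153 and 0.513 CPM in the 10 low libraries, with a median of 0.347 CPM, and between 1.62 and 5.05 CPM in the 29 high libraries, with a median of 2.44 CPM. In the vHipp it lay between 0.157 and 0.548 CPM in the 11 low libraries, with a median of 0.319 CPM, and between 1.28 and 4.45 CPM in the 29 high libraries, with a median of 2.2 CPM. These values chose the classes, so they are described and not tested. The raw counts behind them were 3 to 10 (mPFC) and 3 to 14 (vHipp) in low libraries and at least 22 in high ones. No library of either region was at 0. Srp54a was 8.23-fold (mPFC) and 7.88-fold (vHipp) higher in the mean of the high class. The low minus high log2 fold change (LFC) from the fit that also holds the 4 groups was -3.04 (SE 0.21) in the mPFC and -2.99 (SE 0.24) in the vHipp.

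The limit lay in an empty interval in both regions. The low library nearest to it in the mPFC was that of mouse 7 (CSDS saline, 10 counts, 0.513 CPM) and the nearest high library that of mouse 18 (31 counts, 1.62 CPM), a 3.16-fold gap. In the vHipp these were mouse 39 (CTRL saline, 14 counts, 0.548 CPM) and mouse 9 (22 counts, 1.28 CPM), a 2.34-fold gap. All 39 mice with both regions fell in the same class in both. The remaining mouse, number 5, had only a vHipp library and was low.

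**Figure D1:**
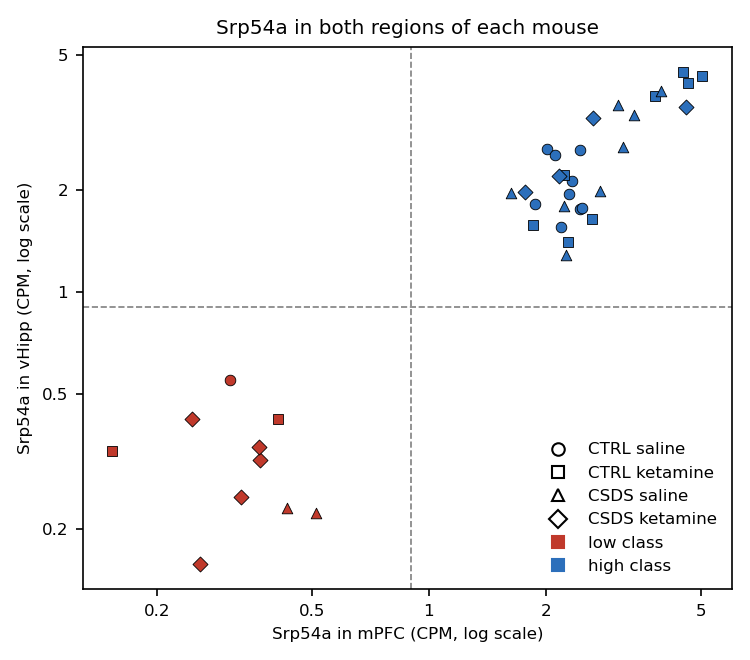
Srp54a in the mPFC (x axis) against the vHipp (y axis) in CPM on log scales, 1 point per mouse with both regions, colored by class and shaped by group. Dashed lines mark the limit of 0.9 CPM, and all 39 mice sit in the lower left or the upper right field.

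Srp54a was not uniform within the high class. At least 3 CPM was reached by 9 of 29 high libraries in each region, in both regions by 8 mice and in neither by 19. The limit of 3 CPM was chosen after the values were seen. These levels also set the classes, so their relation between the regions is described and not tested. Over the 29 high mice, the log2 levels of the 2 regions had a Pearson r of 0.799 and a Spearman rho of 0.663, and without mice 25 and 37, which lay farthest from the median in the mPFC, 0.744 and 0.585. Divided by the limit of 3 CPM, r was 0.707 and rho 0.595 in the 8 mice, and -0.0640 and -0.147 in the 19, where the limit also cuts the range of the levels compared. Among the 10 low mice r was -0.153 and rho -0.333, where counts of 3 to 14 limit the precision.

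A fit across all genes of the 29 high mice asked which genes follow the Srp54a level measured in the other region of the same mouse. In the mPFC, 1 of 28092 genes was past an adjusted p of 0.05 (0.00356%), and in the vHipp 1 of 27999 (0.00357%), and in both it was Srp54a itself (edgeR). Nothing is read from this, since the mice were chosen by the same Srp54a values. As a description, the slope of Srp54a was 0.63 log2 units per doubling of Srp54a in the other region (SE 0.11) in the mPFC and 1.01 (SE 0.15) in the vHipp, and without the 2 mice farthest from the median level 0.59 and 0.995, which were not past the threshold. Of the other genes, 0 were past the adjusted threshold in edgeR. At an unadjusted p under 0.05, the level was followed by 3.38% of the mPFC genes and by 12.5% of the vHipp genes, and DESeq2 called 384 other genes in the vHipp but 0 in the mPFC.

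Low mice occurred in all 4 groups. They were 6 of 10 CSDS ketamine mice (numbers 1, 3, 5, 6, 14 and 17), 2 of 10 CSDS saline mice (2 and 7), 2 of 10 CTRL ketamine mice (26 and 34) and 1 of 10 CTRL saline mice (39). Of CSDS mice, 8 of 20 (40%) were low, against 3 of 20 CTRL mice (15%), and the same counts held for ketamine against saline. Neither difference passed Fisher's exact test (two-sided p = 0.155 for each, adjusted p = 0.155 over the 2 tests). By mouse number, 6 of the 11 low mice were among the 8 lowest numbers, 3 in each of the first 2 runs of 4 numbers, and no later run held more than 1.

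The low mice moved the group means of Srp54a. In the mPFC, the mean was 1.41 ± 1.51 CPM (SD, n = 9) in CSDS ketamine mice and 2.76 ± 1.72 CPM (SD, n = 10) in CTRL ketamine mice, a ratio of 0.511. Among high libraries alone it was 2.79 ± 1.25 CPM (SD, n = 4) and 3.37 ± 1.27 CPM (SD, n = 8), a ratio of 0.828. In the vHipp, the CSDS to CTRL ratio of ketamine mice was 0.523 over all libraries and 0.929 over high libraries. With saline, the ratio was 1.14 and 1.25 in the mPFC and 1.08 and 1.23 in the vHipp. With saline the stressed mice thus had the higher mean in both regions, and with ketamine the lower one, with or without the low libraries, and these ratios were not tested because the classes were selected on the same values.

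**Figure D2:**
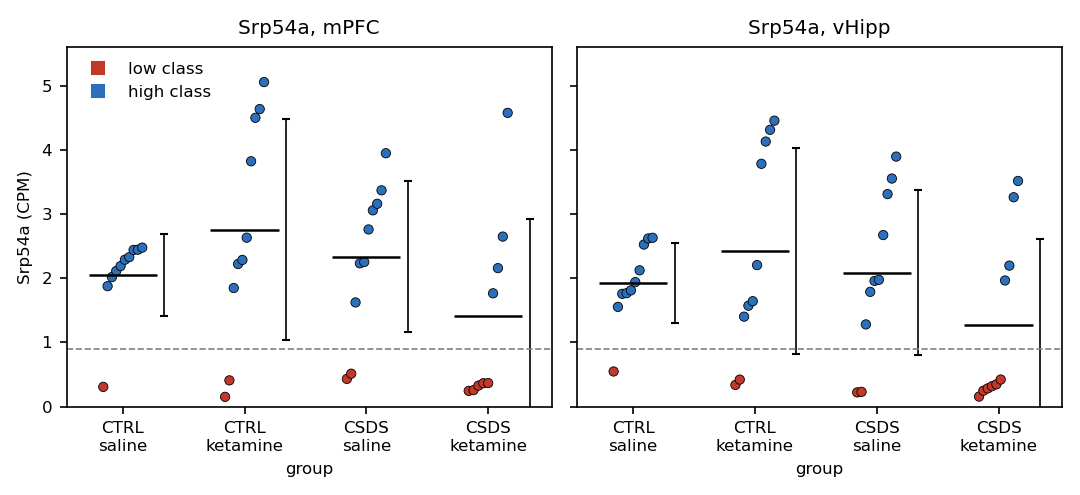
Srp54a (CPM) in each library of the 4 groups, mPFC left and vHipp right, colored by class, with the group mean (line), its SD (bar, cut at 0) and the limit of 0.9 CPM (dashed). CSDS ketamine mice hold 5 of the 10 low mPFC libraries and 6 of the 11 low vHipp libraries.

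Srp54c, the paralog with enough counts to test, did not follow the split. It lay at 16.0 to 19.8 CPM in the 10 low and 14.0 to 20.5 CPM in the 29 high mPFC libraries, with means of 17.9 ± 1.14 CPM and 17.1 ± 1.55 CPM (SD). In the vHipp it lay at 14.7 to 18.3 CPM in the 11 low and 12.0 to 19.5 CPM in the 29 high libraries, with means of 16.6 ± 1.22 CPM and 16.8 ± 1.90 CPM (SD). The ranges of the classes overlapped almost completely. The LFC of Srp54c was 0.03 (95% interval -0.08 to 0.14) in the mPFC and -0.03 (95% interval -0.18 to 0.11) in the vHipp, with adjusted p of 1 in both (edgeR). Per kilobase of exon, Srp54c had a mean level of 4.70 CPM per kb in high mPFC libraries and Srp54a 0.523 CPM per kb, so that Srp54c carried most of the counts of the copies even in high mice.

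Srp54b was at or near 0 in both classes. It had 9 counts in all over the 39 mPFC libraries and 6 over the 40 vHipp libraries, no library had more than 3, and 32 and 34 libraries, respectively, had none. It was not tested for that reason. Of its windows of 100 bases, 12.4% were its own.

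Summed over Srp54b and Srp54c, the mean was 17.9 ± 1.13 CPM in low and 17.1 ± 1.55 CPM in high mPFC libraries (SD, n = 10 and 29), a difference of 0.07 on the log2 scale (two-sided permutation p = 0.147). In the vHipp it was 16.6 ± 1.22 CPM and 16.8 ± 1.90 CPM (SD, n = 11 and 29), a difference of -0.01 (two-sided permutation p = 0.791). A gain in this sum of the size of the missing Srp54a counts was thus not detected. With Srp54a included, the summed level was lower in the low class by 1.68 CPM in the mPFC (18.2 against 19.9 CPM) and by 2.44 CPM in the vHipp (16.9 against 19.4 CPM).

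**Figure D3:**
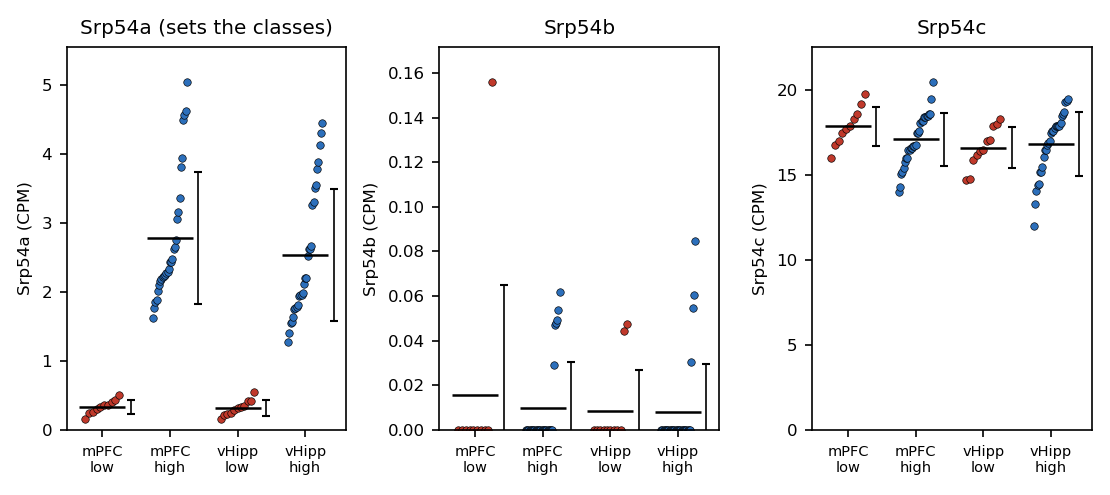
CPM of Srp54a, Srp54b and Srp54c in every library by region and class (points), with the class mean (line) and SD (bar, cut at 0). The classes separate for Srp54a, which chose them, and overlap for Srp54c at 12.0 to 20.5 CPM, while no library exceeds 3 counts of Srp54b.

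Across all genes, Srp54a was the only one past an adjusted p of 0.05 in either region. This was 1 of 28993 genes tested in the mPFC (0.00345%), and in the vHipp 1 of 28991 (0.00345%, edgeR). It was also the only gene whose CPM did not overlap between the classes (0.00345% in each region). Neither count says anything about Srp54a, which the rule used. An unadjusted p under 0.05 was reached by 1317 genes (4.54%) in the mPFC and by 943 (3.25%) in the vHipp, of which 78 reached it in both regions, 59 of them in the same direction. DESeq2 called 1 other gene in the mPFC, Slc6a16, and 0 in the vHipp. In simulated counts with the sizes of these libraries, the same fit recovered 50 (mPFC) and 49 (vHipp) of 50 genes changed 2-fold, and 37 and 34 of 50 changed 1.3-fold, among genes of at least 20 counts on average. Each simulated set held 50 changed genes at each fold (1.3, 1.5, 2 and 4), which eases the adjusted threshold. These shares thus do not say that a lone 2-fold change would be called here. Slc6a16, with an LFC of 1.11 in the mPFC, was not called (adjusted p = 0.0789, edgeR). The low minus high difference did not differ between the regions for any of 31497 genes past the adjusted threshold (0% called, edgeR).

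The neighbours of Srp54a on chromosome 12 did not follow the split as a block. Within 1 Mb on either side, 63 other genes are annotated, of which 33 were tested in the mPFC and 32 in the vHipp, and 0 passed the adjusted threshold (0.00345% of all genes passed it in each region). Their median LFC was -0.01 in the mPFC and -0.04 in the vHipp, and the median of all genes tested was 0.00 in both. Gm22513, which passed the filter on low counts only through its high libraries, is described apart. Of the other neighbours, an unadjusted p under 0.05 was reached by 2 of 32 in the mPFC (Egln3 and Gm9812, 6.25% against 4.54% of all genes) and by 1 of 31 in the vHipp (Gm36634, 3.23% against 3.25%), and none reached it in both.

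On the whole of chromosome 12, the share under an unadjusted p of 0.05 was 4.64% in the mPFC and 4.15% in the vHipp. Among genes with a mean of at least 1 CPM in each region, a limit set after the data were seen, 30 reached it in both regions, of which 2 (6.67%), Frmd6 and Gm6768, lay on chromosome 12, which holds 3.68% of such genes. Among all genes other than Srp54a, 8 of 77 (10.4%) lay there, against 4.15% of the genes tested in both. However, this count holds Gm22513, Igha and, in the vHipp, Ighg2c, which passed the filter only through high libraries. Neither difference was tested. Of the 8, Gm22513 was the nearest to Srp54a, and the others lay 14.25 to 64.15 Mb away. Rn7s2, a copy of the RNA of the signal recognition particle, had 0.0345 ± 0.0428 CPM in low and 0.103 ± 0.125 CPM in high mPFC libraries and 0.0671 ± 0.0646 and 0.144 ± 0.192 CPM in the vHipp (SD). Genes annotated as miscellaneous RNA had a median LFC of -0.18 (mPFC, 62 tested) and -0.16 (vHipp, 57 tested). Igha and Ighg2c, are immunoglobulin heavy chain constant genes of plasma cells. Igha had 0.00526 ± 0.0166 CPM in low and 0.341 ± 0.929 CPM in high mPFC libraries, and in the vHipp 0 counts in low and 0.0639 ± 0.222 CPM in high libraries (SD). Ighg2c had 0.430 ± 0.990 and 1.13 ± 1.22 CPM in the mPFC and 0.00527 ± 0.0175 and 0.0547 ± 0.0904 CPM in the vHipp (SD). Gm6768, Gm47138, Ak7 and Frmd6 were the remaining ones. Ak7, an adenylate kinase of motile cilia, was the exception in direction, with an LFC of 0.97 in the mPFC and -1.30 in the vHipp, and the other 7 had 1 direction in both regions. None of the 8 passed after adjustment (edgeR), and the genes named here were picked after their values were seen.

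The protein-coding neighbours of more than 5 CPM numbered 14 (mPFC) and 13 (vHipp), and their LFC lay between -0.23 and 0.25 in the mPFC and between -0.11 and 0.17 in the vHipp. All of their 95% intervals lay within -0.39 and 0.495 (mPFC) and -0.30 and 0.40 (vHipp). The nearest one was 2700097O09Rik, 0.2 kb from Srp54a on the other strand, with an LFC of -0.01 (SE 0.08) in the mPFC and 0.04 (SE 0.06) in the vHipp. Psma6, a subunit of the proteasome core, had 54.8 ± 5.42 CPM in low and 54.4 ± 4.00 CPM in high mPFC libraries (SD), and 59.4 ± 5.38 and 56.7 ± 4.52 CPM in the vHipp. Ppp2r3c, a regulatory subunit of protein phosphatase 2A, had an LFC of 0.05 (SE 0.05) and 0.04 (SE 0.08), and Nfkbia, the inhibitor of NF-kappa-B, of 0.07 (SE 0.09) and -0.04 (SE 0.07). Baz1a, a chromatin remodeling subunit 65.9 kb away, had 2.10 ± 0.621 CPM in low and 1.70 ± 0.537 CPM in high mPFC libraries and 0.679 ± 0.266 and 0.727 ± 0.263 CPM in the vHipp. The differences of Baz1a were within the spread of the libraries and changed sign between the regions.

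Egln3, an oxygen-sensing prolyl hydroxylase 876.4 kb away, had 10.8 ± 0.916 CPM in low and 12.6 ± 1.72 CPM in high mPFC libraries (LFC -0.23, SE 0.08, unadjusted p = 0.00707, adjusted p = 1, edgeR). In the vHipp its LFC was -0.19 (SE 0.16, unadjusted p = 0.258, edgeR). Sptssa, a subunit of serine palmitoyltransferase, had an LFC of 0.25 (SE 0.12) in the mPFC and -0.11 (SE 0.09) in the vHipp. The difference between its regional values had an unadjusted p of 0.0312, and of 0.00145 with the mouse as a replicate block, and passed the adjusted threshold in neither fit (edgeR).

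**Figure D4:**
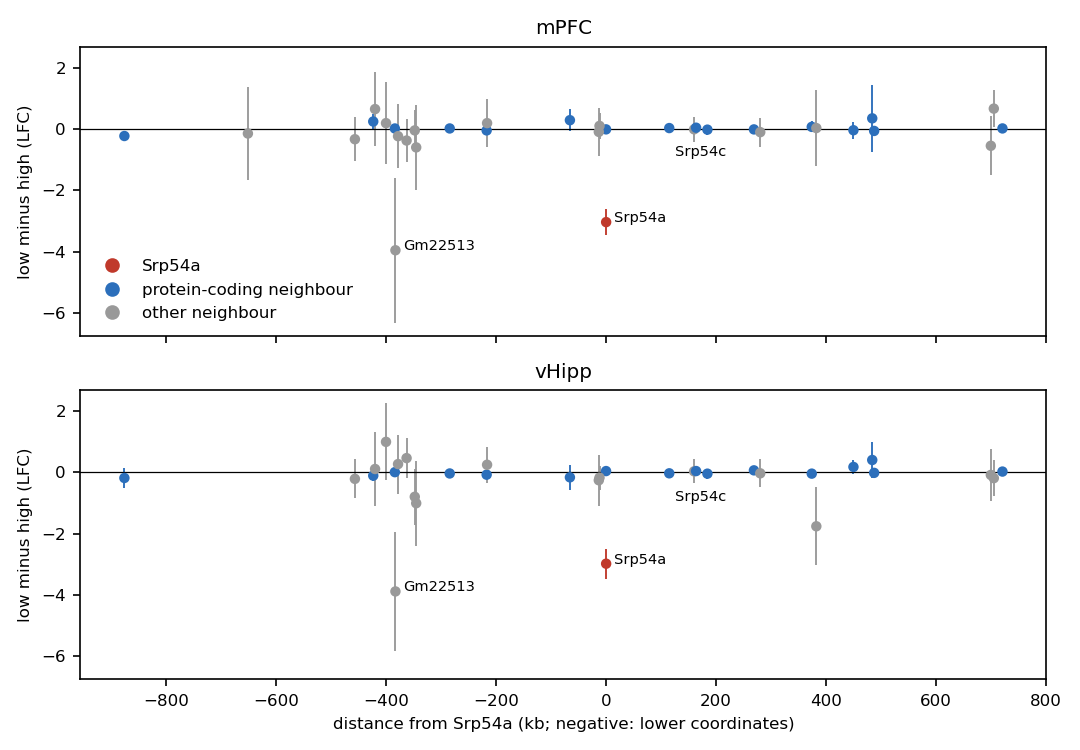
Low minus high LFC (points) with its 95% interval (lines) for Srp54a and each tested gene within 1 Mb, by distance from Srp54a in kb, mPFC above and vHipp below. Apart from Srp54a, which chose the classes, and the sparsely counted Gm22513 at -3.96 and -3.89, protein-coding neighbours (blue) sit near 0.

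Gm22513 is described by its counts. It is annotated as a small nuclear RNA gene of 164 bases on the plus strand (chr12:54696782-54696945), 383.3 kb from Srp54a. In the mPFC it had 1 count in all over the 10 low libraries, and it was detected in 18 of the 29 high libraries, with a mean of 0.190 ± 0.329 CPM (SD). In the vHipp it had 2 counts over the 11 low libraries, both in 1 library, and it was detected in 20 of the 29 high libraries, with a mean of 0.181 ± 0.318 CPM (SD). High libraries had at most 30 counts in the mPFC and 27 in the vHipp, with a median of 2, so that the classes overlapped at 0. The rate in low libraries relative to high ones was 0.0270 (exact 95% interval 0.000678 to 0.153) in the mPFC and 0.0522 (0.00624 to 0.193) in the vHipp, and these intervals cover counting error only.

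As a description, the fitted LFC of Gm22513 was -3.96 (SE 1.17) in the mPFC and -3.89 (SE 0.96) in the vHipp. Without mouse 2 it was -4.92 in the mPFC, without mouse 1 it was -5.16 in the vHipp, and with runs of mouse numbers as covariate it was -3.09 and -2.38, so that its size is not fixed by these counts. Among high mice it was detected in both regions of 15, in 1 region of 8 and in neither region of 6. Among the 10 low mice with both regions it was detected in both regions of none, in 1 region of 2 and in neither of 8. Of its 65 windows of 100 bases, 60 were found in no transcript of another gene, but of its windows of 50 bases only 41.7% (48) were. As a class, small nuclear RNA genes had a median LFC of -0.10 (mPFC, 176 tested) and -0.02 (vHipp, 167 tested). The protein-coding gene nearest to Gm22513 is Eapp, an E2F-associated protein, and its LFC was 0.02 (SE 0.03) and 0.00 (SE 0.04).

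A pair of genes outside the neighborhood are named after their values were seen. Srp54a and Gm22513, which are described and not tested, were left out of the order by which they were picked. Of the remaining genes, ordered by the larger of their unadjusted p in the 2 regions (edgeR), this pair came first. Other genes had a smaller p in a single region. Slc6a16, an orphan transporter of the solute carrier family on chromosome 7, had 0.602 to 4.98 CPM in low and 0.647 to 1.73 CPM in high mPFC libraries, and 0.338 to 2.94 and 0.327 to 1.19 CPM in the vHipp. Its LFC was 1.11 (SE 0.21, unadjusted p = 5.44e-06, adjusted p = 0.0789) in the mPFC and 0.91 (SE 0.26, unadjusted p = 0.00119, adjusted p = 1) in the vHipp (edgeR). Mice 7, 14 and 39 had the 3 highest values of all mice in both regions, 3.90 to 4.98 CPM in the mPFC and 2.23 to 2.94 CPM in the vHipp. The class medians were 1.37 (low) and 0.981 CPM (high) in the mPFC and 0.647 and 0.666 CPM in the vHipp. How much of the difference rests on these 3 mice together was not tested. The other low libraries lay at 0.602 to 1.68 CPM and 0.338 to 1.05 CPM, within the range of the high class in the vHipp and, but for 1 library, in the mPFC. These 3 mice came from 3 different groups.

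Frmd6, a FERM domain protein of the Hippo pathway, lies on the same chromosome as Srp54a but 15.71 Mb away (chr12:70825514-70902234). It had 44.1 to 61.8 CPM (median 55.6) in low and 42.4 to 57.2 CPM (median 47.8) in high mPFC libraries, and 23.9 to 34.8 CPM (median 27.8) and 19.7 to 30.2 CPM (median 23.5) in the vHipp. Of low libraries, 9 of 10 (mPFC) and 11 of 11 (vHipp) were above the median of the high class, with overlapping ranges. Its LFC was 0.16 (SE 0.05, unadjusted p = 0.00172) and 0.26 (SE 0.07, unadjusted p = 0.000331), with an adjusted p of 1 in both (edgeR).

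**Figure D5:**
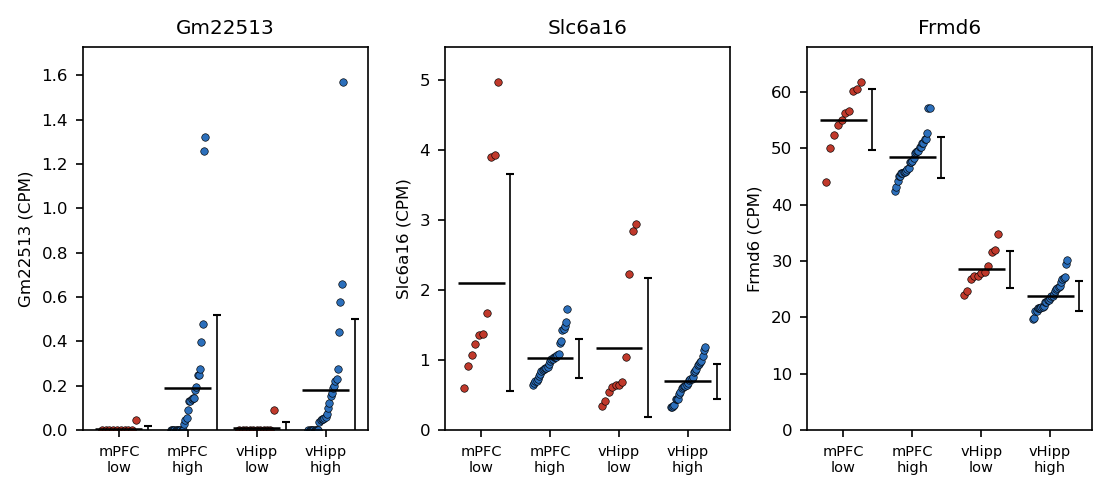
CPM of Gm22513, Slc6a16 and Frmd6 in every library by region and class (points), with the class mean (line) and SD (bar, cut at 0). Low libraries are at or near 0 for Gm22513, 3 low mice stand above all others for Slc6a16 at 2.23 CPM or more, and the classes overlap for Frmd6.

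No partner of the protein was called. Of 23 genes of the signal recognition particle, its receptor, the translocon and the signal peptidase, 23 were tested and 0 passed the adjusted threshold in either region (0.00345% of all genes did, Srp54a alone), so that the count is no result about them. They had a median LFC of 0.01 (range -0.12 to 0.07) in the mPFC and 0.00 (range -0.15 to 0.08) in the vHipp. Srp72, a scaffold subunit of the particle, had 85.6 ± 2.91 CPM in low and 86.1 ± 3.34 CPM in high mPFC libraries (SD). Srp68, its partner, had an LFC of 0.00 (SE 0.04) in the mPFC and 0.01 (SE 0.05) in the vHipp. Srp14, which binds the Alu domain of the RNA, had 0.03 (SE 0.05) and 0.04 (SE 0.06), and Srpr, the receptor subunit that pairs with the GTPase, had 0.01 (SE 0.04) and 0.03 (SE 0.05). Tram1, which assists translocation, reached an unadjusted p of 0.0283 in the vHipp, with 23.9 ± 2.57 CPM in low and 26.7 ± 3.47 CPM in high libraries (adjusted p = 1.00, edgeR).

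Of 18 genes of the stress response of the endoplasmic reticulum, 0 passed the adjusted threshold in either region (0.00345% of all genes). They had a median LFC of -0.01 in the mPFC and -0.03 in the vHipp. Hspa5, the main chaperone of this compartment, had 177 ± 19.6 CPM in low and 180 ± 18.9 CPM in high mPFC libraries and 176 ± 24.3 and 181 ± 24.1 CPM in the vHipp (SD). Asns, an asparagine synthetase, and Hyou1, a chaperone, were the 2 of 18 with an unadjusted p under 0.05 in the mPFC (4.54% of all genes), 0.0381 and 0.0190, with an LFC of -0.10 and -0.11, and neither passed after adjustment (edgeR).

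Cell type markers were counted in the same way. Over neurons, astrocytes, oligodendrocytes, microglia, endothelium, choroid plexus, red cells, striatum, hippocampus and cortex, 0 of 45 markers passed the adjusted threshold in either region (0.00345% of all genes). The summed level of every list overlapped between the classes, as did the CPM of all genes but 0.00345%. The 5 oligodendrocyte markers had summed levels in the mPFC of 538 to 5360 CPM (median 2340) in low and 548 to 5400 CPM (median 1170) in high libraries and a median LFC of 0.54. In the vHipp their medians were 1910 and 1880 CPM. An unadjusted p under 0.05 was reached by 2 of 5 choroid plexus markers in the mPFC (4.54% of all genes), Clic6 and Folr1, and by 3 of 5 red cell markers in the vHipp (3.25% of all genes), Alas2, Hba-a1 and Hbb-bs, at a median sum of 55.4 (low) and 71.0 CPM (high). The 5 choroid plexus markers had a median LFC of 0.89 (range -0.12 to 1.33) in the mPFC, with summed levels of 4.32 to 32.2 CPM (median 7.21) in low and 4.30 to 20.4 CPM (median 6.66) in high libraries. In the vHipp their median LFC was -0.65 (range -1.62 to -0.02), with summed levels of 14.9 to 28.1 CPM (median 21.7) in low and 13.8 to 738 CPM (median 21.1) in high libraries. The part of cell type composition in the smaller differences was not tested. Mitochondrial counts had medians of 3.79% (low) and 3.55% (high) in the mPFC and 3.97% and 3.91% in the vHipp.

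The split was also set beside that of H2-T22, an MHC class I gene that parts the same mice into a high and a low level. High H2-T22 was found in 3 of 10 low and 5 of 29 high Srp54a libraries of the mPFC and in 3 of 11 and 5 of 29 of the vHipp, so that both levels of H2-T22 occurred in both classes.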

How the data were processed

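The authors deposited raw counts of reads per gene (GRCm38), not normalized. Per the methods, libraries were stranded and made from mRNA, and samples with degraded RNA and 1 outlier had been left out. The submitters' processing notes name bcl2fastq 2.20.0.422, while aligner and read counter are not given in the sources used here. Exon lengths in bases come from the same deposited file. Symbols and sequences were taken from GENCODE mouse release 21, which matched 55230 of 55471 gene identifiers. Protein sequences were not used here.

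The labels gave region, group and mouse number. Rank and box of the mice were not used here. CPM was computed as count over library total, and the class of each library followed from the limit of 0.9 CPM. In each region, genes of over 10 counts in all and seen in over 3 libraries were tested with the quasi-likelihood test of edgeR 4.0.16 (R 4.3.3, TMM, the 4 groups as covariate, two-sided, Benjamini-Hochberg threshold 0.05). Single values were compared with permutation tests of 100000 resamples (scipy 1.17.1). The region difference was fitted over 39 mice. The number names the mouse, so it pairs the regions (consensus correlation 0.162, limma 3.58.1). Each mouse is 1 replicate, and whether libraries were prepared together is not known, so p-values measure the spread between these libraries. Fits were tested on simulated data.

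The classes, the gene lists (signal recognition particle and translocon, endoplasmic reticulum stress, 10 sets of cell markers) and the rule for named genes (paralogs, tested genes within 1 Mb, list members, called genes, genes that do not overlap between classes, and H2-T22 by its counts per class) were chosen with earlier results of these data known. The fits within the high class were added after the data were seen. Other settings were DESeq2 1.42.0, RLE normalization, no filter, filterByExpr, no covariate, runs of 4 mouse numbers with treatment as covariates, classes from the other region or from TMM-normalized CPM, each low mouse left out, and other window sizes.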

Additional observations from a re-analysis of the deposited data

Results flagged for a closer look

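A library was marked when its gap to the nearest other library of its group was above the 95% critical value of Dixon's ratio, for Srp54a, Srp54c, Slc6a16 and Frmd6. For each gene, the 8 groups (4 per region) and the 10 low mPFC libraries were examined. Of these 36 sets of 9 or 10 libraries, 10 were marked, where chance marks about 1 in 20. Srp54a chose the classes, and Slc6a16 and Frmd6 were chosen after their values were seen to differ between the classes, so neither the number of marks nor the class of the marked mice is independent evidence. For Srp54a, mouse 39 stood below the other CTRL saline mice, with 0.308 CPM against a next value of 1.88 CPM in the mPFC and 0.548 against 1.55 CPM in the vHipp. This follows from the class to which it was assigned. For Slc6a16, mouse 7 stood above the other CSDS saline mice, with 4.98 against 1.73 CPM in the mPFC and 2.23 against 1.19 CPM in the vHipp. Mouse 14 stood above the other CSDS ketamine mice, with 3.94 against 1.68 CPM in the mPFC and 2.84 against 1.05 CPM in the vHipp. Mouse 39 stood above the other CTRL saline mice, with 3.90 against 1.49 CPM in the mPFC and 2.94 against 1.14 CPM in the vHipp. Mouse 26 stood above the other CTRL ketamine mice in the mPFC only, with 1.38 against 1.07 CPM. For Frmd6, mouse 39 had 56.2 CPM against a next value of 50.9 CPM among CTRL saline mice in the mPFC. All of the marked mice were in the low Srp54a class, and no library was marked for Srp54c.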

How the results depend on the processing

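The class was the same for the 39 mice with both regions when taken from the other region, and for all libraries when taken from TMM-normalized CPM. Counts of called genes other than Srp54a were 0 in both regions under every setting, except that in the mPFC 1 gene, Slc6a16, was called with DESeq2, and leaving out 1 low mouse at a time gave 0 to 1 genes (Slc6a16, without mouse 2, 17 or 34; adjusted p 0.00953 at the lowest over all settings). Unadjusted counts depended on the filter: filterByExpr left 764 genes in the mPFC, against 1316, and 459 in the vHipp, against 942, where no filter gave 1530. The paralog sum and the neighbor counts in windows of 0.5, 2 and 5 Mb did not change their call. Within the high class, DESeq2 called 384 genes other than Srp54a in the vHipp, against 0 in edgeR, and the cause was not tested. DESeq2 gave no adjusted p for Srp54a there. Without the 2 mice farthest from the median, the slope of Srp54a was 0.59 (mPFC) and 0.995 (vHipp), no longer past the threshold. Neither that call nor its loss is read as a result, since the mice were chosen by the same Srp54a values. With the mouse as a replicate block, and with limma-voom, 0 genes differed between the regions, as without a block. The LFC of Gm22513 ranged from -4.92 to -3.09 in the mPFC and from -5.16 to -2.38 in the vHipp, the value nearest 0 in each being that with runs of mouse numbers as covariate. It has too few counts for filterByExpr. Srp54a rests on 3 to 14 counts in low libraries, so differences within that class were not detectable at this depth.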
